A study of Mus musculus with 82 samples.

Results

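The colony-stimulating factors and their receptors were followed across 13 mouse mammary tumour models. The genes were chosen by name, as 3 ligands, Csf1, Csf2 and Csf3, and 4 receptor chains, Csf1r, Csf2ra, Csf2rb and Csf3r, and were looked up by symbol among the 47480 genes of the counts table. All 7 of these 7 genes were found, and 7 of 7 passed the filter on low counts, which 22847 genes passed in all. RNA of untreated tumours had been sequenced as 82 libraries. On a BALB/c background stood 2153 (n = 7 libraries), 2208 (n = 12), 2224 (n = 4), 2225 (n = 10), 2250 (n = 11), 2336 (n = 5), 4T1 (n = 5), 9263 (n = 7) and T12 (n = 3). E0771 (n = 3) was on C57BL/6, and KPB1-A (n = 2), MMTV-NEU (n = 8) and MMTV-PYMT (n = 5) were on FVB. Genotype, age and passage are not given in the sources used here, and no group is a normal gland. 4T1 and E0771 are established mouse mammary carcinoma lines, and MMTV-NEU and MMTV-PYMT carry the names of transgenes driven by the mouse mammary tumour virus promoter. Libraries of a model are described as biological replicates but are not tied to separate animals. The p-values below thus rest on library-to-library spread, part of which may be technical.

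Csf1, also called M-CSF, acts through the receptor tyrosine kinase Csf1r and keeps macrophages and their monocyte precursors alive and dividing. Il34 is the other ligand of the same receptor. Csf2, or GM-CSF, binds the alpha chain Csf2ra, and the beta chain Csf2rb, shared with the receptors for interleukin 3 and interleukin 5, carries the signal to Jak2 and Stat5 in myeloid cells. Csf3, or G-CSF, drives the production and release of neutrophils through Csf3r. In mammary tumours the ligands can be made by the carcinoma cells or by the stroma, whereas the receptors are mainly known from the myeloid infiltrate.

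Mouse genomes carry a close copy of the beta chain, Csf2rb2, whose product pairs with the interleukin 3 receptor. The first 90 coding bases of both copies are shown because reads from such stretches cannot be assigned to 1 gene with certainty. The sequences are from the GENCODE M21 transcripts, both genes lie on chromosome 15 of mm10, and capitals mark the bases that differ.
Csf2rb: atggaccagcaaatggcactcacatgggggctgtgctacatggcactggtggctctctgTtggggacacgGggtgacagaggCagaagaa
Csf2rb2: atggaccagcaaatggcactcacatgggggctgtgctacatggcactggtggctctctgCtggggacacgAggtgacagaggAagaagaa
Over the whole coding sequence 92.9% of the aligned positions were identical, and 18.8% of the 31-base words of Csf2rb also occurred in Csf2rb2. Counts of the pair are therefore uncertain as to which copy they belong to.

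Start regions are shown for Csf1, Csf3r and Csf2ra to print matches to motifs of factors known in myeloid or inflammatory transcription, found in RefSeq promoters (GRCm38.p6, 250 bases before to 50 after the start). Capitals mark GAGGAA, the core bound by PU.1 (Spi1), TTNNGNAA, a loose form of the C/EBP motif, or an NF-kB site, each searched on both strands. The Csf2 promoter also held TTNNGNAA, 145 bases before its start. No promoter was available for Csf3 and Csf2rb, and that of Csf1r was not searched. The Csf1 stretch runs over chr3:107760570-107760669 on the minus strand, the Csf3r stretch over chr4:126024561-126024590 on the plus strand, and the Csf2ra stretch over chr19:61228421-61228450 on the minus strand.
Csf1: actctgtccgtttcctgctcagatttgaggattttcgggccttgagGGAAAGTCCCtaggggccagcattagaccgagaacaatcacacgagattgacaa
Csf3r: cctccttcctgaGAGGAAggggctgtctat
Csf2ra: gTTTCCCAAcctgcagatGAGGAAGAGGAA
The NF-kB match began 154 bases before the Csf1 start and occurred in 4.51% of 32851 promoters. GAGGAA stood in 28.3% of them and TTNNGNAA in 40.7%, so both are common in windows of this length. The matches describe letters in these windows and are not evidence of binding.

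Levels are given as CPM, the deposited expected counts relative to the library total, scaled by TMM factors (trimmed mean of M-values). Counts per library summed to between 14.44 and 132.7 M (mega), with a median of 58.19 M. In the plots of RNA per library the models stand in the same order in every panel. In profile, 81 of 82 libraries were most like other libraries of their own model, and the exception was MMTV-PYMT replicate 5, which was most like MMTV-NEU. The epithelial marker Epcam averaged at least 366 CPM in 11 models but 0.948 ± 0.809 CPM in E0771 and 0.66 ± 0.413 CPM in T12 (SD, n = 3 each). By edgeR 6 of 8 epithelial markers were lower in E0771 and 8 of 8 in T12, and none was higher. Krt8, an epithelial keratin, was nonetheless at 374 ± 18.5 CPM in E0771 and 287 ± 53.2 CPM in T12 (SD, n = 3 each), above its means of 171 ± 72.9 CPM in 2336 (SD, n = 5) and 142 ± 60.3 CPM in 9263 (SD, n = 7). The libraries of 9263 stood apart from each other. Replicates 2, 3 and 4 had summed levels of the 5 leukocyte markers of 224, 351 and 321 CPM, against 40.2, 20.1, 23.7 and 41.5 CPM in replicates 1, 5, 6 and 7. The first set had totals of 23.39, 25.39 and 35.39 M counts, against 42.7, 73.35, 116.37 and 98.43 M counts in the second, and the part of depth in that split was not tested. Means of 9263 therefore cover libraries that differ widely.

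All 7 members differed among the 13 models in edgeR's quasi-likelihood F test, with adjusted p from 9.91e-30 (Csf1) to 4.35e-11 (Csf2ra). The same test called 98.2% of the 22847 genes tested, so a call by itself says little about these genes. Each model was then set against the mean of the other 12 model means, and 50 of the 91 tests of a member in a model passed, 26 higher and 24 lower. That share, 54.9%, is near the 52.6% of all tests of a gene in a model that passed.

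Csf1 was highest in T12 and E0771. Its levels were 406, 371 and 394 CPM in T12, 365, 340 and 389 CPM in E0771, and 267, 170, 322, 259 and 261 CPM in 4T1. The T12 and E0771 libraries lay above all other libraries. Next came 2250, where the lowest, median and highest of 11 libraries were 81.6, 136 and 241 CPM. At the other end, 2336 held 29.7, 26.8, 19.4, 24.5 and 18 CPM, so the mean of T12 was 16.5 times that of 2336. The remaining 8 models averaged between 31.1 CPM (2225) and 82.4 CPM (MMTV-PYMT).

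In the edgeR contrasts Csf1 was higher than the mean of the other 12 models in T12 (log2 difference 2.42, SE 0.19, adjusted p = 2.27e-18), E0771 (2.31, SE 0.19, adjusted p = 1.92e-17), 4T1 (1.76, SE 0.17, adjusted p = 4.8e-15) and 2250 (0.90, SE 0.13, adjusted p = 7.58e-09). It was lower in 2336 by -1.96 (SE 0.24), in 2225 by -1.54 (SE 0.16), in 9263 by -1.09 (SE 0.19), in KPB1-A by -1.01 (SE 0.34) and in MMTV-NEU by -0.56 (SE 0.17), each with an edgeR adjusted p of 0.0121 or less. Neighbours in the order of levels were compared for each gene. That order comes from the same values, so neighbours are close by construction and a step that does not pass says little. For Csf1 the steps 4T1 to 2250 (0.79, SE 0.22, edgeR adjusted p = 0.00146) and 2250 to MMTV-PYMT (0.84, SE 0.24, edgeR adjusted p = 0.00191) passed. The other 10 of 12 neighbouring pairs did not pass. Libraries of E0771 and 4T1, 1 of those pairs, did not overlap (0.51, SE 0.30, edgeR adjusted p = 0.167). Of all 78 pairs of models Csf1 passed in 56, against a median of 43 over all tested genes, and 52.4% of all tests of a gene in a pair passed.

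Il34, which is not among the members but signals through the same receptor, also peaked in E0771. It stood at 57.1, 64.5 and 73.7 CPM there, at 51.8, 50.2 and 48.1 CPM in T12, and at 26.8, 24, 24.2, 28.1 and 24.2 CPM in 4T1. All E0771 libraries were above every other library. The remaining 10 models averaged 3.6 CPM (MMTV-PYMT) to 12.3 CPM (2208), and no library of theirs reached the lowest of 4T1. The steps T12 to 4T1 (0.98, SE 0.31, edgeR adjusted p = 0.0104) and 4T1 to 2208 (1.05, SE 0.22, edgeR adjusted p = 5.16e-05) passed.

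Csf2 RNA was scarce everywhere and highest in 4T1. The 5 libraries of 4T1 held 1.13, 0.934, 1.65, 2.26 and 2.44 CPM, from 118, 101, 141, 178 and 271 counts. Each was above every other library of the series, the next being a 2225 library at 0.787 CPM. In 2225 the lowest, median and highest libraries were 0.213, 0.331 and 0.787 CPM, in 2208 they were 0.207, 0.258 and 0.622 CPM, and E0771 held 0.41, 0.295 and 0.224 CPM. MMTV-PYMT had 3 counts in all over 5 libraries, 2336 had 4 over 5, and 9263 had 6 over 7. Csf2 was at 0 in 15 libraries, which allows a level of up to 0.0258 to 0.128 CPM depending on the library (3 counts of its total, for counting error only).

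Csf2 was higher than the mean of the other 12 models in 4T1 (log2 difference 4.55, SE 0.35, edgeR adjusted p = 5.31e-19), 2225 (2.35, SE 0.33, edgeR adjusted p = 3.06e-09), E0771 (1.91, SE 0.52, edgeR adjusted p = 0.00113) and 2208 (1.86, SE 0.32, edgeR adjusted p = 7.01e-07). It was lower in MMTV-PYMT (-3.06, SE 0.81), 2336 (-2.59, SE 0.78), 9263 (-2.43, SE 0.66) and MMTV-NEU (-1.52, SE 0.59), each with an edgeR adjusted p of 0.0209 or less. KPB1-A replicate 1 holds all 3 counts of its model, and without it these differences were -2.72, -2.23, -2.11 and -1.20. That fit cannot test the 4 lower calls, because KPB1-A at 0 counts has no lower limit on the log2 scale. Among neighbours in the order, 4T1 to 2225 passed (2.04, SE 0.52, edgeR adjusted p = 0.000505) and the other 11 pairs did not.

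Csf3 spanned the widest range of the members. It stood at 19.8, 33.3, 29.8, 29.1 and 34.3 CPM in 4T1, and in 2153 the lowest, median and highest of 7 libraries were 16.1, 24.5 and 27.1 CPM. The next models were 2208 at 1.35, 5.54 and 16.3 CPM and 2224 at 3.41, 5.49, 4.15 and 3.24 CPM. At the low end stood E0771 with 0.0342, 0.0804 and 0.0448 CPM, from 2, 6 and 3 counts, and 2336 with 0.0687, 0.0523, 0, 0 and 0.109 CPM, from 13 counts in all. The mean of 4T1 was 637 times that of 2336. T12 libraries agreed closely at 1.09, 1.16 and 1.07 CPM, whereas MMTV-PYMT libraries ran over 1.36, 0.0673, 0.653, 0.0408 and 0.878 CPM.

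By edgeR, Csf3 was higher in 4T1 (log2 difference 5.07, SE 0.33, adjusted p = 8.56e-23), 2153 (4.63, SE 0.31, adjusted p = 3.36e-22), 2208 (2.57, SE 0.27, adjusted p = 3.31e-13) and 2224 (1.99, SE 0.40, adjusted p = 3.59e-05). It was lower in 2336 (-4.97, SE 0.74, adjusted p = 1.97e-08), E0771 (-4.71, SE 0.90, adjusted p = 5.65e-06) and MMTV-NEU (-1.93, SE 0.45, adjusted p = 0.000131). Against only the other BALB/c models the 2224 call was lost (1.01, edgeR adjusted p = 0.0619). Neighbouring steps passed from 2153 to 2208, from 2224 to 2250 and from MMTV-NEU to E0771, and 9 did not, 4T1 against 2153 among them (0.40, SE 0.54, edgeR adjusted p = 0.55).

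**Figure D1:**
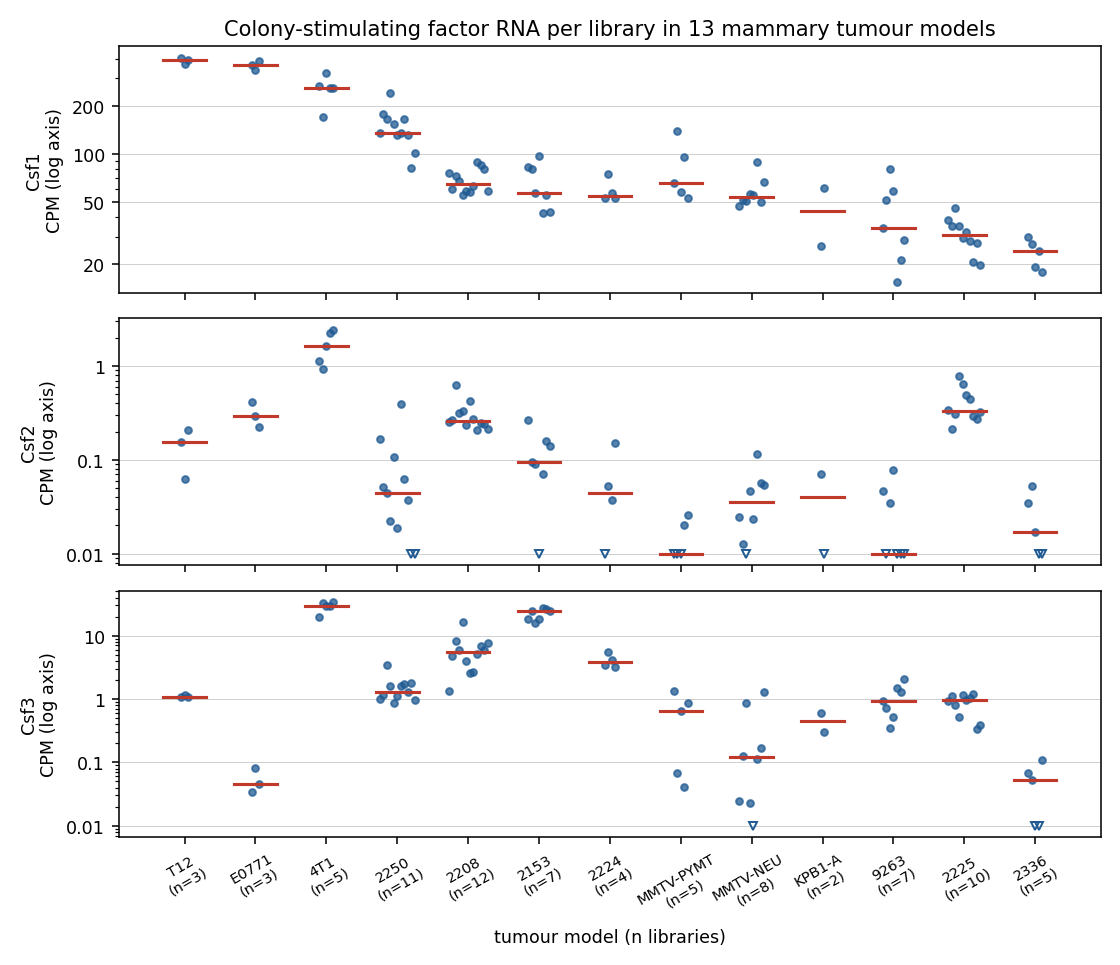
CPM of Csf1, Csf2 and Csf3 in each of the 82 libraries (points, log axis), by model on the horizontal axis, with the median of each model as a bar and open triangles for values under 0.01 CPM, drawn at 0.01. The 5 libraries of 4T1 lie above all others for Csf2, and the 3 of E0771 are high for Csf1 (340 to 389 CPM) and low for Csf3 (0.0342 to 0.0804 CPM).

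Among the receptors, Csf1r was highest in T12. Its levels were 483, 467 and 624 CPM in T12, 434, 237, 347, 253 and 324 CPM in 4T1, and 144, 194 and 124 CPM in E0771. Each T12 library was above every other library. The lowest model was 2225, at 16, 35.7 and 50.1 CPM for its lowest, median and highest library, and 2336 held 37.4, 36.8, 28.7, 54.7 and 31 CPM. In bulk tumour RNA fewer cells of a type and less RNA per cell cannot be told apart. The 9263 libraries spanned the lowest levels of the series and some of its higher ones, with 97.3, 135 and 156 CPM in replicates 2, 3 and 4 and 12.1, 5.08, 6.65 and 14.5 CPM in replicates 1, 5, 6 and 7.

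Csf1r was higher than the mean of the other 12 models in T12 (log2 difference 2.84, SE 0.31, edgeR adjusted p = 1.46e-12), 4T1 (2.06, SE 0.27, edgeR adjusted p = 8.76e-10) and E0771 (0.93, SE 0.38, edgeR adjusted p = 0.0322). The E0771 call was not stable. It was lost without E0771 replicate 1 (0.97, edgeR adjusted p = 0.0723), without E0771 replicate 2 (0.73, edgeR adjusted p = 0.211), with DESeq2 (0.91, adjusted p = 0.0519) and with limma on the authors' normalized values (0.95, adjusted p = 0.0682). Csf1r was lower in 2225 (-1.45, SE 0.28, edgeR adjusted p = 4.67e-06) and 2336 (-1.27, SE 0.37, edgeR adjusted p = 0.00271). None of the 12 neighbouring pairs of the order passed. Of all 78 pairs Csf1r passed in 38, fewer than the median of 43 over all tested genes. Csf1r shares 14.6% of its 31-base words with Hmgxb3, a gene that overlaps its 3′ end, and strand was not stated for the counting. Hmgxb3 averaged between 30.8 CPM (2336) and 87 CPM (KPB1-A), a narrower range than that of Csf1r.

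Csf2ra, the alpha chain that gives the GM-CSF receptor its specificity, was the most even member. Model means ran from 44.8 ± 9.47 CPM in 4T1 (SD, n = 5) to 10.2 ± 4.32 CPM in 2153 (SD, n = 7), a 4.41-fold range. 4T1 libraries held 45.2, 31.1, 54.5, 40.5 and 52.4 CPM, and those of 2153 held 6.24, 9.99 and 18.8 CPM as lowest, median and highest. Libraries of these models did not overlap. Csf2ra was higher in 4T1 (log2 difference 0.84, SE 0.21, edgeR adjusted p = 0.000526) and 2225 (0.48, SE 0.16, edgeR adjusted p = 0.00914). It was lower in 2153 (-1.48, SE 0.23, edgeR adjusted p = 5.03e-08), 9263 (-1.31, SE 0.22, edgeR adjusted p = 5.52e-07) and MMTV-NEU (-0.55, SE 0.20, edgeR adjusted p = 0.0111). The step from MMTV-NEU to 9263 was the 1 neighbouring pair of 12 that passed (0.70, SE 0.26, edgeR adjusted p = 0.0157).

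Csf2rb, the beta chain, was highest in 4T1 and T12. It stood at 146, 96.7, 123, 96.1 and 102 CPM in 4T1 and at 79.8, 87 and 86.7 CPM in T12, with no overlap between them or with the other models, whose highest library was a 2208 library at 55.7 CPM. The lowest means were 7.81 ± 2.7 CPM in 2225 (SD, n = 10) and 7.09 ± 1.11 CPM in 2336 (SD, n = 5). By edgeR, Csf2rb was higher in 4T1 (log2 difference 2.44, SE 0.27, adjusted p = 1.26e-12), T12 (1.99, SE 0.34, adjusted p = 9.06e-07) and 2208 (0.56, SE 0.22, adjusted p = 0.0261), and lower in 2336 (-1.88, SE 0.40, adjusted p = 4.13e-05), 2225 (-1.74, SE 0.28, adjusted p = 1.96e-07) and MMTV-NEU (-1.02, SE 0.30, adjusted p = 0.00209). Against the other BALB/c models the 2208 call was lost (0.42, edgeR adjusted p = 0.118). No neighbouring pair of 12 passed. The copy Csf2rb2 was called higher in the same 3 models and lower in the same 3, and its model means ran from 51.5 ± 10.1 CPM in 4T1 (SD, n = 5) to 3.7 ± 0.68 CPM in 2336 (SD, n = 5).

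The 2 chains of the GM-CSF receptor did not keep a constant ratio. On the log2 CPM scale (prior count 2), Csf2ra minus Csf2rb was 2.24 ± 0.49 in 2225 (SD, n = 10) and 2.25 ± 0.27 in 2336 (SD, n = 5), with libraries between 1.72 and 3.20. It was -1.52 ± 0.33 in 2153 (SD, n = 7), -1.34 ± 0.31 in 4T1 (SD, n = 5) and -1.12 ± 0.02 in T12 (SD, n = 3). The highest library of any other model was at 1.62, in MMTV-PYMT, so the libraries of 2225 and 2336 stood above all others. Per kilobase of exon, the median of the 13 model means was 10.3 CPM for Csf2ra and 3.36 CPM for Csf2rb.

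Csf3r, the receptor of neutrophils and their precursors that monocytes also carry, was highest in 2153. The lowest, median and highest of its 7 libraries were 21.5, 40 and 69.4 CPM. It stood at 24.2, 27.4, 42 and 36.9 CPM in 2224, at 24.5, 32.1 and 19.8 CPM in E0771, at 24.5, 30.6, 23.7, 17.7 and 28.3 CPM in 4T1, and at 18.1, 27.3 and 21.5 CPM in T12. These 5 models overlapped with each other, and none of the 4 steps between them passed. The lowest model was 2336, at 2.23, 2.98, 1.73, 4.01 and 1.6 CPM.

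Csf3r gave the most calls of the members, 6 higher and 4 lower in 13 models, closely followed by Csf1 with 4 and 5. Over all genes 52.6% of such tests passed. By edgeR it was higher in 2153 (log2 difference 2.19, SE 0.22, adjusted p = 2.75e-14), 2224 (1.80, SE 0.28, adjusted p = 1.11e-07), E0771 (1.41, SE 0.33, adjusted p = 0.000154), 4T1 (1.38, SE 0.26, adjusted p = 7.17e-06), T12 (1.20, SE 0.33, adjusted p = 0.00185) and 2208 (0.70, SE 0.20, adjusted p = 0.0017). It was lower in 2336 (-2.21, SE 0.37), 2225 (-1.81, SE 0.26), MMTV-PYMT (-1.51, SE 0.35) and MMTV-NEU (-1.50, SE 0.28), each with an edgeR adjusted p of 0.00016 or less. With the other BALB/c models as the only reference the 2208 difference was 0.45 (edgeR adjusted p = 0.0583). Against the other FVB models the MMTV-PYMT and MMTV-NEU calls were lost too, at -0.33 (edgeR adjusted p = 0.573) and -0.30 (edgeR adjusted p = 0.533). A single neighbouring step passed, from 2208 to 9263 (0.96, SE 0.32, edgeR adjusted p = 0.00765).

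**Figure D2:**
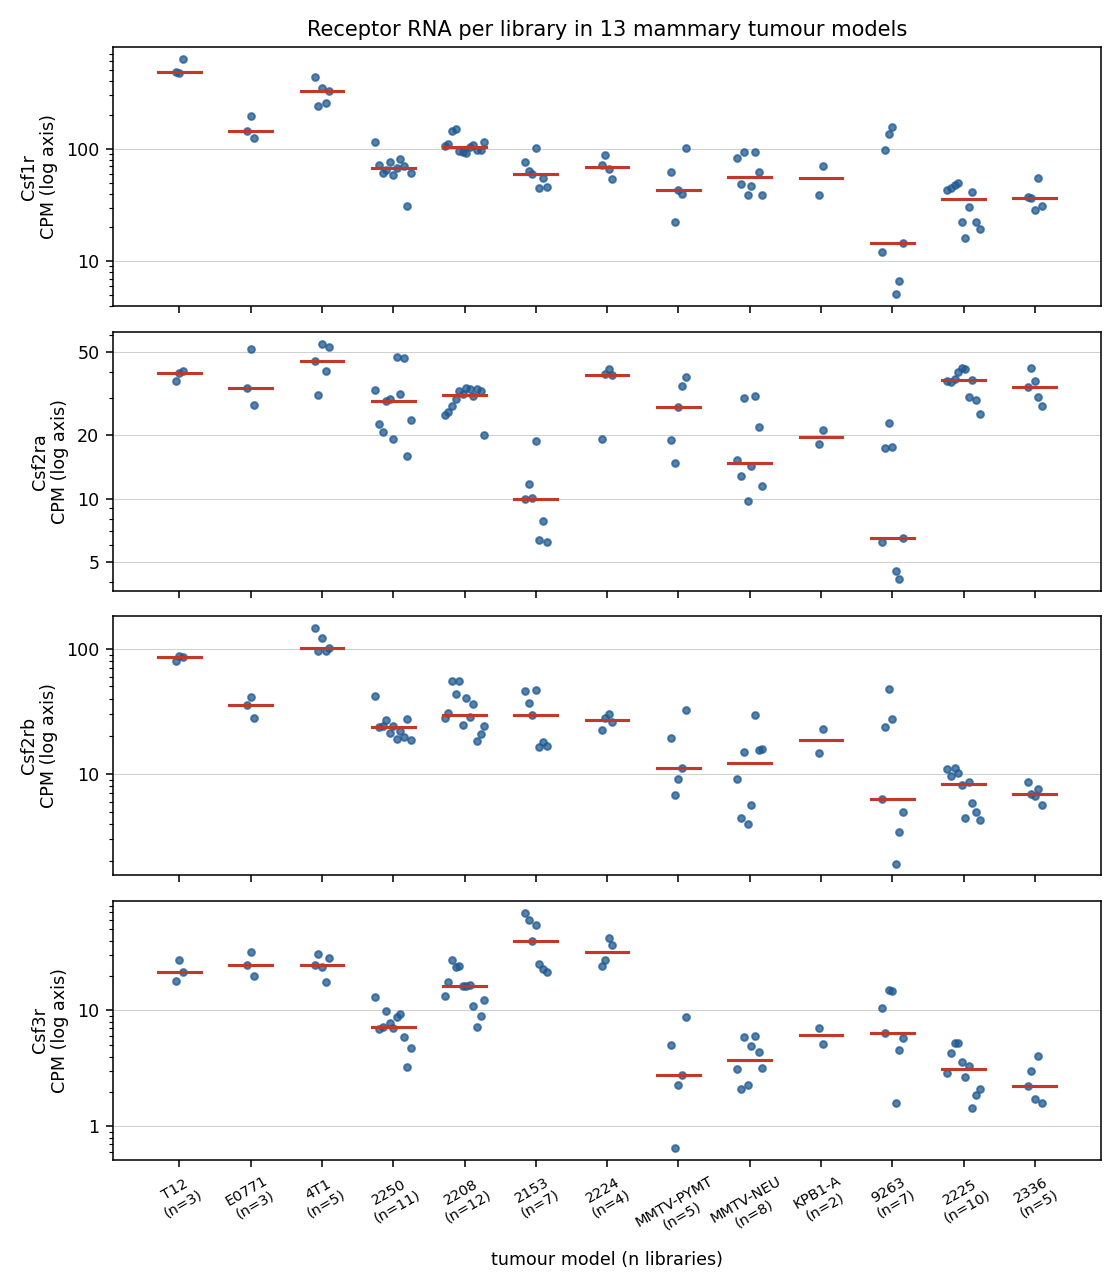
CPM of Csf1r, Csf2ra, Csf2rb and Csf3r in each of the 82 libraries (points, log axis), by model on the horizontal axis, with the median of each model as a bar. Csf2ra covers the narrowest range (model means 10.2 to 44.8 CPM), and the 7 libraries of 9263 split into 3 high and 4 low for Csf1r.

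Seen by model, 4T1 was higher in 7 of 7 members, where 25.5% of all tested genes were higher. T12 was higher in 4 (24.4% of all genes), with Csf2, Csf2ra and Csf3 not passing. E0771 was higher in 4 and lower in Csf3, where 29.4% of all genes were higher and 26.9% lower. Of the members 4 were higher in 2208 (29.4% of all genes). In 2153 Csf3 and Csf3r were higher and Csf2ra was lower, against 29.4% and 23.6% of all genes. The members higher in 2224 were Csf3 and Csf3r (24.0% of all genes), and in 2250 Csf1 was higher (32.1% of all genes).

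At the low end, 2336 was lower in 6 of 7, all except Csf2ra, where 25.4% of all genes were lower. The same number, 6, was lower in MMTV-NEU (28.4% of all genes), where Csf1r did not pass. In 2225, 4 were lower, and Csf2 and Csf2ra were higher, against 26.8% of all genes lower and 34.2% higher. 9263 was lower in 3 (21.9% of all genes) and MMTV-PYMT in 2 (20.5%). KPB1-A, with 2 libraries, was lower in 1 (14.4%), 1 of 7 members.

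Strain and model cannot be told apart, and this bears on the FVB models. When each model was set against the other models of its own strain, all 9 calls in the 3 FVB models were lost. Each of them then had only 2 models as its reference. For MMTV-NEU the log2 differences became -0.04 (Csf1), -0.64 (Csf3), -0.33 (Csf2ra), -0.48 (Csf2rb) and -0.30 (Csf3r), and that of Csf2 turned round to 0.67 (edgeR adjusted p = 0.559). For MMTV-PYMT they became -1.46 (Csf2) and -0.33 (Csf3r), and for KPB1-A Csf1 gave -0.67 (edgeR adjusted p = 0.102). In the BALB/c models 3 of 36 calls were lost, and E0771 had no other model of its strain. Without KPB1-A replicate 1 the Csf1 difference of that model was -0.61 (edgeR adjusted p = 0.354).

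Ligand was next set against receptor within each library, as the log2 CPM of the ligand minus that of the receptor (prior count 2). The differences varied among models for all 5 pairs tested. One-way F statistics with a permutation test over the 82 libraries (100000 resamples) gave 6.33 for Csf1 minus Csf1r, 3.96 for Il34 minus Csf1r, 17.5 for Csf2 minus Csf2ra, 13.3 for Csf2 minus Csf2rb and 15.9 for Csf3 minus Csf3r. The Benjamini-Hochberg adjusted permutation p over the 5 was 0.00037 for Il34 and 1.2e-05 for the others, whose raw p of 1e-05 is the smallest the permutations can give.

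Csf1 exceeded its receptor most in E0771 and 2250. Csf1 minus Csf1r was 1.26 ± 0.42 in E0771 (SD, n = 3) and 1.11 ± 0.43 in 2250 (SD, n = 11), against -0.68 ± 0.31 in 2208 (SD, n = 12) and -0.66 ± 0.33 in 2336 (SD, n = 5). Corrected for length, every library of E0771 (0.94 to 1.78), 2250 (0.37 to 2.03) and 2153 (0.04 to 0.46) had more Csf1 than Csf1r RNA per kilobase. Every library of 2208 (-1.03 to -0.08), 2336 (-1.03 to -0.20), T12 (-0.54 to -0.12) and KPB1-A (-0.44 to -0.08) had less. Before that correction T12, highest in both genes, stood at -0.42 ± 0.22 (SD, n = 3). Across the 13 model means Csf1 and Csf1r had r = 0.88 and rho = 0.85, a description of means that share their libraries.

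For Csf3 and Csf3r the pairs of extremes were 4T1 and E0771. The difference was 0.23 ± 0.37 in 4T1 (SD, n = 5) and -8.23 ± 0.27 in E0771 (SD, n = 3), while 2336, with the other very low Csf3, stood at -5.18 ± 1.29 (SD, n = 5). Per kilobase, Csf3 exceeded Csf3r in each 4T1 library, by 1.05 to 2.07 on the log2 scale. 2153 followed at 0.55 per kilobase, with libraries on both sides of 0 (-0.58 to 1.56). Over the 13 model means r was 0.64 and rho 0.66.

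Csf2 was set against both of its receptor chains. On the log2 CPM scale, Csf2 minus Csf2rb was highest in 2225 at -4.15 ± 0.71 (SD, n = 10) and lowest in T12 at -9.02 ± 0.71 (SD, n = 3), and the model with the most Csf2, 4T1, stood at -6.12 ± 0.72 (SD, n = 5). Against Csf2ra it was highest in 4T1 at -4.77 ± 0.47 (SD, n = 5) and lowest in 2336 at -9.41 ± 0.42 (SD, n = 5). Per kilobase the Csf2 minus Csf2rb difference averaged -0.97 in 2225 and -5.84 in T12. Many of these values rest on a few counts of Csf2 and on the prior count.

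**Figure D3:**
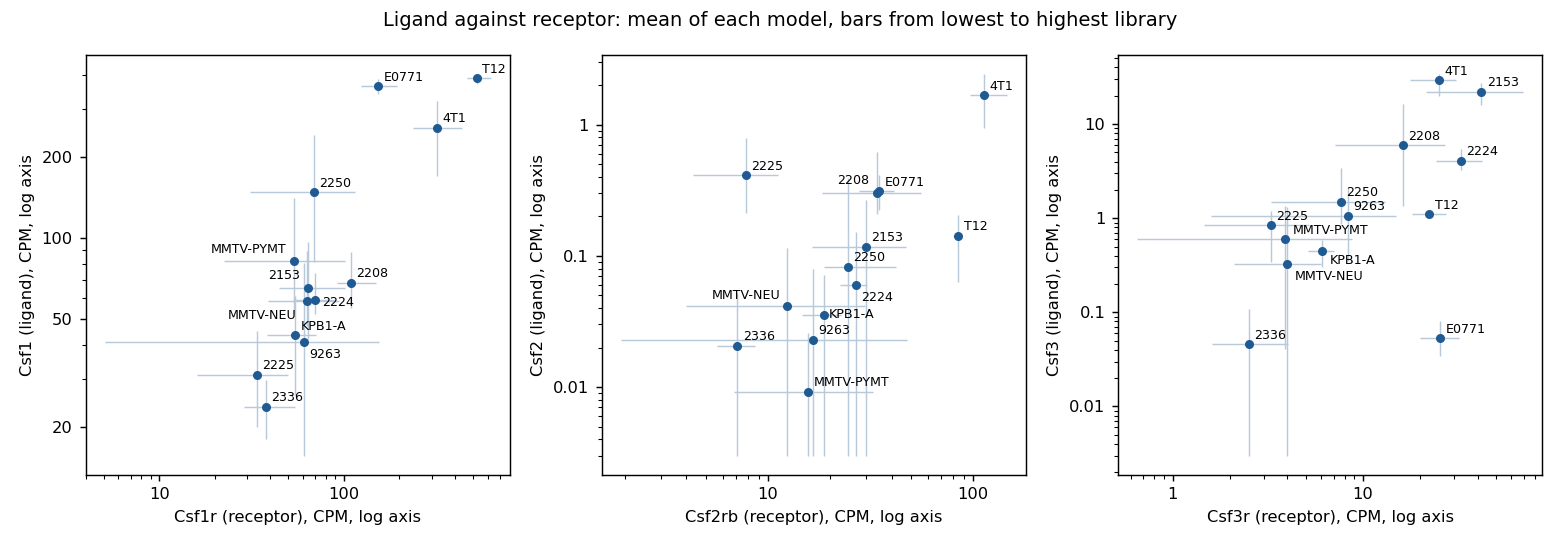
Mean CPM of each ligand (vertical, log axis) against that of its receptor (horizontal, log axis) for the 13 models, with Csf1 and Csf1r at left, Csf2 and Csf2rb in the middle and Csf3 and Csf3r at right, and bars from the lowest to the highest library, cut at 0.003 CPM where a library was at 0. E0771 lies apart in the right panel, with 0.0531 CPM of Csf3 at 25.5 CPM of Csf3r.

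The receptors were then set against other genes of the cells known to carry them. For each library the mean log2 CPM of 16 macrophage or 16 neutrophil markers was subtracted from that of the receptor. All 6 differences varied among models in the permutation test, with F between 9.62 and 31.8 and an adjusted p of 1e-05 for each (100000 resamples, the smallest they can give).

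Csf1r stayed closest to its markers. Csf1r minus macrophage markers ran from 2.49 ± 0.12 in T12 (SD, n = 3) and 2.39 ± 0.15 in 4T1 (SD, n = 5) down to 1.19 ± 0.07 in E0771 (SD, n = 3). Over 82 libraries with model means removed, Csf1r and the macrophage markers had r = 0.96, and with the 5 leukocyte markers r = 0.95, as a description over libraries that share their model and depth. E0771 had high macrophage markers, with Adgre1 (F4/80) at 150 ± 42.7 CPM and Cd68 at 217 ± 40.3 CPM (SD, n = 3 each), against 162 ± 21.7 and 170 ± 19.1 CPM in T12 (SD, n = 3 each). Mrc1, the mannose receptor, was at 75.1 ± 12.6 CPM in E0771 and 578 ± 107 CPM in T12 (SD, n = 3 each).

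Csf3r departed most from the neutrophil markers in E0771. The difference there was 5.81 ± 0.19 (SD, n = 3), the next model being T12 at 3.79 ± 0.31 (SD, n = 3), and the lowest was MMTV-PYMT at 1.26 ± 0.86 (SD, n = 5). The places below E0771 depended on the neutrophil markers Lcn2 and Ltf, which epithelial cells can also express. Lcn2 was at 1.44 ± 0.554 CPM in E0771, 2.33 ± 0.75 CPM in T12 (SD, n = 3 each) and 5501 ± 2544 CPM in MMTV-PYMT (SD, n = 5). Ltf was at 0.387 ± 0.231, 0.822 ± 1.14 and 1587 ± 1147 CPM in E0771, T12 and MMTV-PYMT. Without both genes, an alternative chosen after seeing these values, the difference was 5.92 ± 0.26 in E0771, still the highest, and 3.69 ± 0.18 in T12 (SD, n = 3 each). T12 then stood below MMTV-NEU at 4.29 ± 0.47 (SD, n = 8), 2224 at 4.02 ± 0.57 (SD, n = 4) and 2336 at 3.84 ± 0.56 (SD, n = 5). MMTV-PYMT, at 2.85 ± 0.86 (SD, n = 5), was no longer lowest, as 4T1 was at 1.91 ± 0.27 (SD, n = 5). In E0771 the neutrophil granule gene S100a9 was at 0.0298 to 0.067 CPM and the neutrophil chemokine receptor Cxcr2 at 0.0448 to 0.103 CPM, beside 19.8 to 32.1 CPM of Csf3r. In 2153 S100a9 was at 23.9 to 177 CPM and Cxcr2 at 8.35 to 30.8 CPM. Of the 16 neutrophil markers 8 were lower in E0771 by edgeR, S100a9 and Cxcr2 among them, and 3 were higher. The higher ones were Clec4d (log2 difference 1.80), Hdc (1.10) and Il1b (1.59), the last at 25.3 ± 8.72 CPM (SD, n = 3) and also known from macrophages. All 5 leukocyte markers and 11 of 16 macrophage markers were higher in E0771, and their part in its Csf3r level was not tested. The offset was not particular to Csf3r. Against the same markers Csf2rb was also highest in E0771, at 6.28 ± 0.12 (SD, n = 3). Csf2ra, at 6.36 ± 0.31 (SD, n = 3), was second to 2336 at 6.68 ± 0.75 (SD, n = 5). In E0771 6 of the 16 neutrophil markers averaged under 0.1 CPM, so their log2 values lean on the prior count. The Csf3r transcripts also share 19.9% of their 31-base words with a processed pseudogene, AC105061.2, which was not analysed here.

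Csf2ra and Csf2rb stood differently to the macrophage markers. Csf2ra minus macrophage markers was 1.59 ± 0.41 in 2225 (SD, n = 10) and 1.52 ± 0.44 in 2336 (SD, n = 5), the models with 12 and 10 of 16 macrophage markers lower, and -1.26 ± 0.07 in T12 (SD, n = 3), where 13 of 16 were higher. Csf2rb minus macrophage markers was 0.91 ± 0.20 in 4T1 (SD, n = 5) and 0.66 ± 0.48 in 2153 (SD, n = 7), against -0.95 ± 0.08 in E0771 (SD, n = 3) and -0.74 ± 0.32 in 2336 (SD, n = 5). Across the 13 model means the macrophage markers had r = 0.56 with Csf2ra, 0.89 with Csf2rb and 0.96 with Csf1r, as a description. Over 82 libraries with model means removed the values for Csf2ra and Csf2rb were closer, at 0.78 and 0.83. Csf2ra had r = 0.74 and rho = 0.87 with the endothelial markers over the 13 model means, and Csf2rb had r = 0.41 and rho = 0.36. With model means removed, over 82 libraries, the order was the other way round, at r = 0.58 for Csf2ra and 0.68 for Csf2rb.

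**Figure D4:**
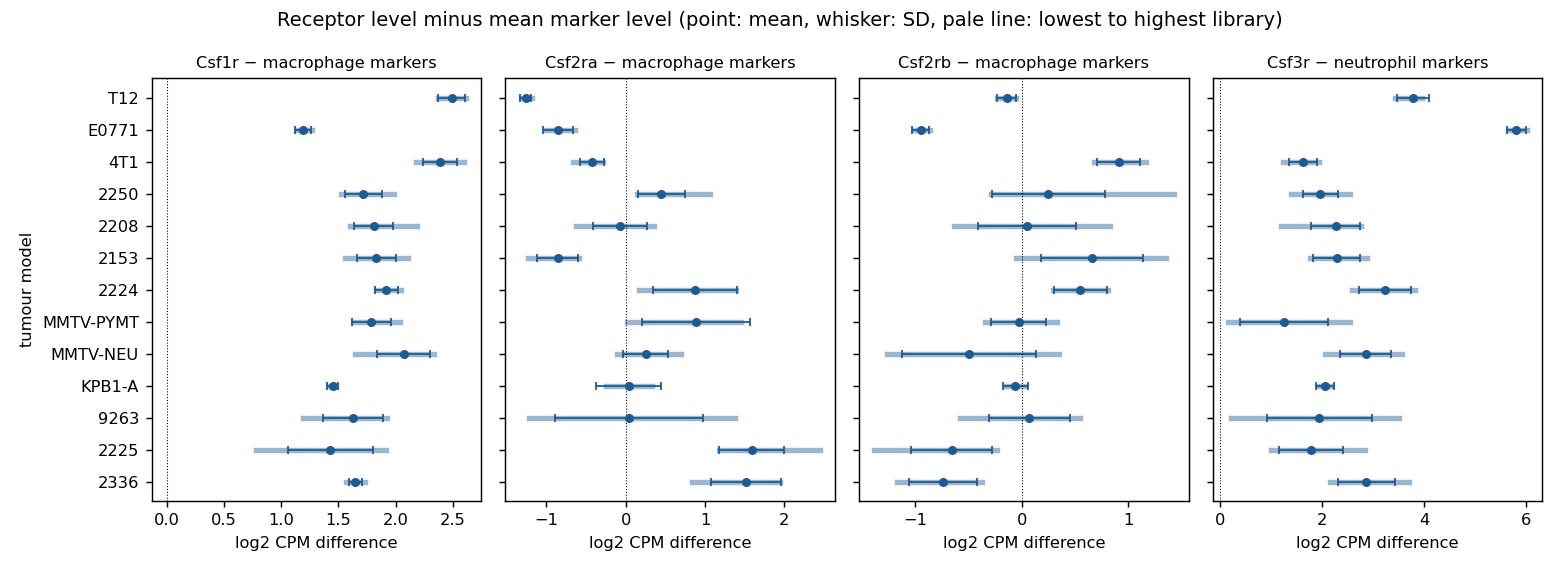
Log2 CPM of each receptor minus the mean log2 CPM of the marker genes of its cell type (horizontal axis), by model (vertical axis); points are means, whiskers SD and pale lines the range over libraries. E0771 is lowest for Csf1r (1.19) and highest for Csf3r (5.81), and 2225 (1.59) and 2336 (1.52) are highest for Csf2ra.

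Csf3 followed the neutrophil markers more closely than its receptor did in these means. Over the 13 model means Csf3 and the neutrophil marker score had r = 0.98 and rho = 0.97, and with the 2 models farthest from the median left out r = 0.96. Csf3r had r = 0.66 with the same score. Without Lcn2 and Ltf the values were 0.93 for Csf3 and 0.79 for Csf3r. With model means removed, over 82 libraries, the values were 0.34 for Csf3 and 0.66 for Csf3r, so the order was the other way round among libraries of a model. These are descriptions over libraries that share their model, and no test of the difference was made.

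Within models, ligand and receptor were compared over the libraries of the 6 models with at least 6 libraries, 30 relations in all, with adjustment over the 30. The 7 libraries of 9263 fell into separate sets of 3 and 4. Those of 2153 were put into sets of 3 and 4 by title number, and for Csf1 these nearly met, at 54.7 and 56.7 CPM. A relation pooled over such sets may mirror the difference between them, so none is read in either model. Both models were set aside after their values were seen. Over all 7 libraries Csf1 with Csf1r had passed in each, at r = 0.95 (permutation test, adjusted p = 0.006 in 2153 and 0.018 in 9263). Csf3 with Csf3r had r = -0.61 in 2153 and -0.73 in 9263 and did not pass. In the other 4 models 1 of 20 relations passed, with the adjustment still over all 30. In 2153 the title numbers form 3 runs, which are replicate 1, replicates 2 to 4 and replicates 5 to 7. Replicate 1 is put with replicates 2 to 4 below. What the numbers stand for is not given in the sources used here. Csf1 was at 42.1 to 54.7 CPM in replicates 5 to 7 and 56.7 to 96.3 CPM in replicates 1 to 4. Csf1r was at 44.7 to 54.6 CPM in replicates 5 to 7 and 60.1 to 101 CPM in replicates 1 to 4. The sets did not overlap for Csf2ra, Csf2rb and Csf3r either, with Csf3r at 21.5 to 25.2 CPM in replicates 5 to 7 and 40 to 69.4 CPM in replicates 1 to 4. In replicates 1 to 7 of 2153 Csf1 was at 82.5, 80.2, 56.7, 96.3, 42.1, 54.7 and 43.1 CPM, and Csf1r at 76.8, 63.9, 60.1, 101, 44.7, 54.6 and 45.3 CPM. The summed leukocyte markers moved with them, at 223, 199, 151, 273, 85.5, 116 and 84 CPM, and the totals ran in the other direction, at 82.07, 54.0, 53.46, 29.43, 88.44, 106.12 and 119.84 M counts. The part of infiltrate and depth in that split was not tested.

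In 2208, Csf2 and Csf2rb had r = 0.73 (permutation p = 0.0041, adjusted p = 0.041, rho = 0.71 with adjusted p = 0.11, n = 12), and r was 0.67 without the 2 farthest libraries. That adjustment covered all 30 relations, where Csf1 with Csf1r in 2153 and 9263 had smaller permutation p (0.0002 and 0.0012). Adjustment over the 20 relations alone was not run, so this call leans on the models set aside. Csf2 counts there were 5 to 36 per library. The title numbers of 2208 also fall into runs, as do those of 2225, 2250 and MMTV-NEU, whose runs were not examined. Replicates 2 to 5 held 0.265 to 0.622 CPM of Csf2 and 30.8 to 55.7 CPM of Csf2rb, while replicates 9 to 11 held 0.207 to 0.244 CPM of Csf2 and 18.4 to 35.9 CPM of Csf2rb, and the part of these runs in the relation was not tested. The remaining 19 relations had r between -0.42 and 0.69 and did not pass. Csf3 and Csf3r did not pass in any of the 4 models, with r from -0.09 in 2250 to 0.19 in 2208 and MMTV-NEU.

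**Figure D5:**
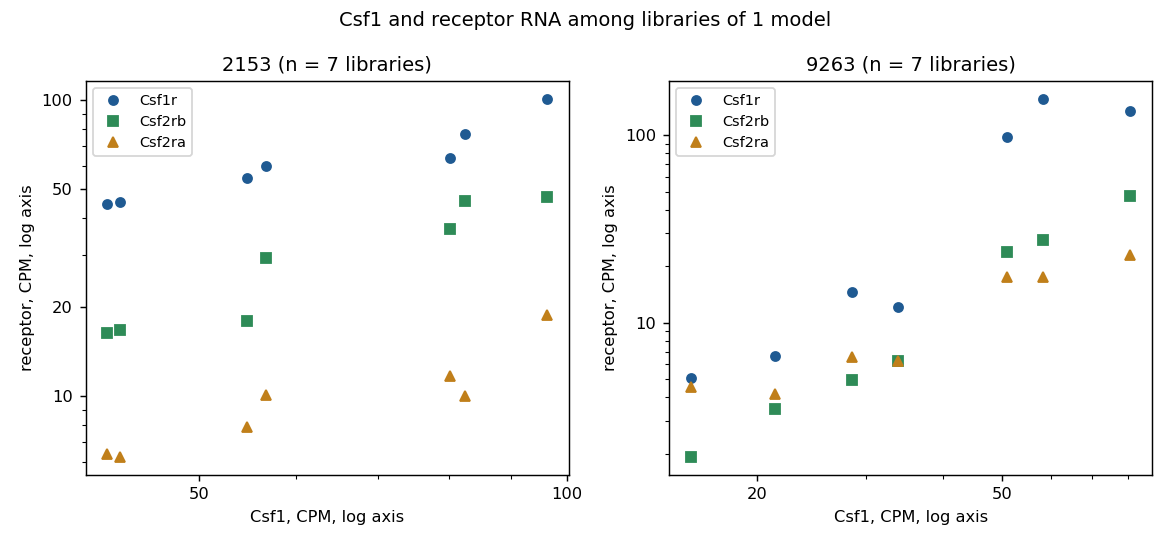
CPM of Csf1r, Csf2rb and Csf2ra (vertical, log axis) against Csf1 (horizontal, log axis) in the 7 libraries of 2153 (left) and of 9263 (right). Each point is 1 receptor in 1 library. In 9263 the 3 libraries with the most Csf1 (50.8 to 80.7 CPM) hold 97.3 to 156 CPM of Csf1r and the other 4 hold 5.08 to 14.5 CPM.

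Genes downstream of these receptors were described from a list of 32 signalling and myeloid transcription genes, all of which were tested. In 4T1 20 were higher and 3 lower, in E0771 20 and 6, and in T12 16 and 5, where 25.5%, 29.4% and 24.4% of all tested genes were higher. The median log2 difference of the list was 0.71, 0.83 and 0.49 in these models, beside -0.08, -0.11 and -0.09 over all tested genes. The lowest medians were -0.53 in KPB1-A (3 higher, 12 lower), -0.52 in 2336 (8 higher, 17 lower), -0.42 in MMTV-PYMT (11 higher, 15 lower) and -0.37 in 2225 (5 higher, 17 lower) and MMTV-NEU (8 higher, 16 lower). Of all tested genes 14.4% were lower in KPB1-A, 25.4% in 2336, 20.5% in MMTV-PYMT, 26.8% in 2225 and 28.4% in MMTV-NEU.

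Genes with a wide range of model means did not all follow the members. Socs2, an inhibitor of cytokine signalling that Stat5 induces, was higher in MMTV-NEU at 591 ± 98.2 CPM (SD, n = 8, log2 difference 3.55) and lower in E0771 at 4.25 ± 1.65 CPM (SD, n = 3, -4.17). Stat5b itself was higher in MMTV-NEU at 162 ± 34.6 CPM (SD, n = 8, 2.05) and lower in 9263 at 6.74 ± 6.95 CPM (SD, n = 7, -2.94). Socs1, another inhibitor of the family, was higher in E0771 at 23.5 ± 7.9 CPM (SD, n = 3, 3.16) and lower in MMTV-NEU (-2.40), a call lost against the other FVB models (-0.85, edgeR adjusted p = 0.0575). Pik3r1, the regulatory subunit of PI3 kinase, was higher in MMTV-PYMT (2.57) and lower in E0771 (-2.17), and Cebpb, a transcription factor of emergency granulopoiesis, was higher in 2224 (1.80). Each call named so far in this group of genes had an edgeR adjusted p of 3.62e-06 or less. In KPB1-A Cebpb was at 50.1 and 8.49 CPM in its 2 libraries, a mean of 29.3 ± 29.5 CPM (SD, n = 2), with a log2 difference of -1.97 (edgeR adjusted p = 0.0119). That difference rested on replicate 2, without which it was -1.26 (edgeR adjusted p = 0.302), and against the other FVB models it was -1.28 (edgeR adjusted p = 0.0964).

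The genes most like each member over the 82 libraries, among 16420 compared, differed between the chains. Csf1r was most like Cyth4, Nckap1l and Ncf1 (r = 0.96 each) and Laptm5 (r = 0.95), and removing model means left r at 0.96 or 0.97. Csf2rb was most like its copy Csf2rb2 (r = 0.96), Ncf4 (0.94), Ncf1 (0.93) and Igsf6 (0.92). Csf3r was most like Cd101 (0.89), Il1r2 (0.88), Siglecf (0.88) and Il1b (0.87). For Csf2ra the highest values were lower, with Epn1 (0.75), Rinl, Ppp1r12c and Blcap (0.73 each). Among the ligands, Csf3 was most like Prss22 and Cxcr2 (0.87 each), Trem1 and Stfa2l1 (0.84 each), and Csf1 was most like Fam78a (0.89), Cd180 and Pqlc3 (0.88 each) and Aida (0.87). Csf2 was most like Psg17 (0.80), Fcrlb (0.79), Uox (0.75) and Jak3 (0.74), on few counts. These values describe libraries that share a model, and with model means removed the likeness of Csf3 to Cxcr2 was 0.25.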

How the data were processed

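Polyadenylated RNA of mammary tumours was sequenced as 82 TruSeq mRNA libraries, per the labels' protocols. The deposited gene table holds the authors' expected counts (86.7% whole within 0.001). STAR, SAMtools, Picard and Salmon with build mm10 were named without versions or roles, per the submitters' processing notes. The annotation and the strand setting are not given in the sources used here. The authors also deposited a table of normalized signal. Its values matched upper-quartile scaling of the counts above 0 (each library's quartile set to a constant), with zeros written as 1.

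Counts were rounded. edgeR 4.0.16 (R 4.3.3) kept 22847 genes (filterByExpr by model, minimum count 10, minimum total 15), scaled libraries by TMM and fitted 1 mean per model over all libraries, with 69 residual degrees of freedom. Unless another tool is named, gene-level adjusted p are Benjamini-Hochberg values over all tested genes in this fit. Calls needed an adjusted p under 0.05. SE was obtained as the absolute log2 difference over √F. Differences between genes of a library used log2 CPM with prior count 2. Exon lengths and positions are from GENCODE M21, promoters from RefSeq. Scripts were tested on simulated data.

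Named genes were the members, their relatives, 32 pathway genes with up to 6 named by range (a result among these is not reported here), the 4 genes most like each member, and up to 3 markers per list by level. Of the markers, Epcam, Krt8, Lcn2, Ltf, Cxcr2, Clec4d, Hdc, Il1b, Adgre1, Cd68, Mrc1 and S100a9 fall outside that rule or were picked with their values known. The members and lists were chosen with earlier results of these data known. Alternatives were DESeq2 1.42.0 and its size factors, no filter, limma 3.58.1 on the log2 of the normalized signal, prior counts of 0.5 and 8, every second gene of each marker list, reference models of the same strain, and leaving out libraries. Leaving out 9263 libraries, and Lcn2 and Ltf from the neutrophil list, were added after seeing the data.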

Additional observations from a re-analysis of the deposited data

Results flagged for a closer look

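Of 56 groups of 4 to 10 libraries looked at for the 7 members, 1 held a library far from the rest, where chance flags about 1 in 20. It was Csf2ra in 2224, at 19.3 CPM in replicate 1, against 38.7 to 41.1 CPM in the other 3 libraries, with the gap to the nearest at 0.92 of the whole range on the log2 scale. The same library was at 52.3 CPM for Csf1, 71.4 CPM for Csf1r and 24.2 CPM for Csf3r, where the other 3 ran over 52.4 to 74.4, 53.3 to 88.3 and 27.4 to 42 CPM. It was at 22.5 CPM for Csf2rb, 3.41 CPM for Csf3 and 0 for Csf2, where the others ran over 25.8 to 30.3, 3.24 to 5.49 and 0.037 to 0.152 CPM. Its total was 35.22 M counts, against 78.54 to 93.02 M in the others, and the part of depth was not tested.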

How the results depend on the processing

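No paired analysis was possible because the labels give no replicate numbers shared between models. Of the 50 calls of a member in a model, 35 held under every alternative run. Models of the same strain as the reference cost 12 calls, 9 of them in FVB models, and turned Csf2 in MMTV-NEU round (0.67). Apart from that reference, 6 calls were lost somewhere, 5 of them without KPB1-A replicate 1, and 1 each with DESeq2 and with limma. Among those 5 are the 4 lower Csf2 calls, which the fit without that library could not test. The number of genes called in KPB1-A was 5844 to 9111 when single libraries were left out, against 8965 with all. It was 5844 without KPB1-A replicate 1 and 5945 without KPB1-A replicate 2, the lone library being assumed to vary like other groups. With the FVB reference 7184 genes were called in MMTV-PYMT, against 11756. The relation of Csf2 with Csf2ra in MMTV-NEU, never near a call, changed sign with prior count 0.5 (r = -0.09). The cause was not tested. The 5 ligand to receptor and 6 receptor to marker differences passed under all alternatives run, leaving out each library of 9263 and, for the 3 neutrophil differences, Lcn2 and Ltf among them. Depth limits Csf2, which had 37 or fewer counts over all libraries of a model in T12, 2250, 2224, MMTV-NEU, 9263, 2336, KPB1-A and MMTV-PYMT.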

Other observations

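The other receptors that use the beta chain were seen at low levels. Il3ra, the alpha chain for interleukin 3, averaged 9.44 ± 0.839 CPM in T12 (SD, n = 3) and 8.82 ± 3.15 CPM in E0771 (SD, n = 3), and was higher there by edgeR (log2 difference 1.25, adjusted p = 0.000726, and 1.15, adjusted p = 0.00178). It was also higher in 2208 and 9263, and lower in 2153 (1.58 ± 0.39 CPM, SD, n = 7, -1.54, edgeR adjusted p = 4.08e-06), MMTV-NEU and 2225. Il3 was at 0 in 77 of 82 libraries and Il5ra in 61, and neither passed the filter. Il5, the eosinophil growth factor, was at most 0.225 CPM in any library and was called higher in 2250 and lower in 2336.

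One library broke the close match of the beta chain copies. In 2250 replicate 10 Csf2rb stood at 27.6 CPM and Csf2rb2 at 2.5 CPM, a log2 difference of 3.45, whereas the model averages of that difference ran from 0.85 in E0771 to 1.76 in 2250.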
